A study of Mus musculus with 6 samples.

Results

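The TRAF, cIAP and NIK genes were examined in ATAC-seq peak lists from regulatory T cells (Tregs). They were Traf1, Traf2, Traf3, Traf5, Birc2, Birc3 and Map3k14, 7 genes chosen for their place below receptors of the TNF family. A region was assigned to a gene when it overlapped the gene's RefSeq span or the 10 kb on either side, and peaks of the 6 libraries that overlapped by at least 1 bp were merged into one region. By this rule 48 of the 64817 regions of the genome lay at the 7 genes. ATAC-seq uses the transposase Tn5, which cuts and tags DNA where it is not packed away, so that a peak marks accessible chromatin. The WT group was 3 libraries (replicates 2, 4 and 6) from C57BL6 mice, and the KO group was 3 libraries (replicates 1, 2 and 4) from il33-/- mice on that background, which lack the cytokine interleukin-33. All mice carried B16.F10 melanoma, a transplantable tumour line, given under the skin as 300000 cells. On day 14 CD4+CD25+GITR+ cells, labelled as Foxp3+ Tregs, were sorted from the lymph nodes draining the tumour. The comparison asked how Treg chromatin differed when the host lacked interleukin-33. The labels give neither age nor sex, and do not say whether each library came from its own mouse, so p-values measure only how these libraries vary, and part of that spread may be technical.

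TNF family receptors such as OX40, 4-1BB and GITR, which Tregs carry, bind TRAF adaptor proteins on their cytoplasmic tails. TRAF2 is a central adaptor that brings in the cIAP ubiquitin ligases, and TRAF3 holds NIK, the kinase that starts the non-canonical NF-kB pathway, within reach of them. In resting cells this complex keeps NIK low by ubiquitination and degradation, and receptor engagement breaks it up so that NIK accumulates and the NF-kB2 precursor is processed. Birc2 encodes cIAP1, Birc3 encodes cIAP2, and Map3k14 encodes NIK. Traf5 encodes an adaptor related to TRAF2, and Traf1 one that lacks the RING domain found in the others.

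The promoters of 5 members are shown because they span the range of accessibility described next, from the tallest start regions (Birc2 and Map3k14) to a lower one (Birc3), the lowest shared one (Traf3), and the one start without a peak in all libraries (Traf1). Each line gives the 250 bases before a RefSeq start (GRCm38.p6, the assembly behind mm10), 5′ to 3′ on the gene's strand. Capitals mark the letters of the motifs searched, which were kB GGGNNTTTC, AP-1 TGANTCA, ETS CCGGAA, GC box GGGCGG and Runx TGTGGT, each on both strands.
Birc2, chr9:7837058-7837307, minus strand, ETS in capitals: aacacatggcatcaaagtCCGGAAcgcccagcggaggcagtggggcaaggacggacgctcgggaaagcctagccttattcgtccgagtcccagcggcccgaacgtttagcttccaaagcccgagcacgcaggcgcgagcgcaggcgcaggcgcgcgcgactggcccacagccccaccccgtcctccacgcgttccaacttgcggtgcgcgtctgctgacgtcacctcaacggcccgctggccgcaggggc
Map3k14, chr11:103267402-103267651, minus strand, ETS and GC box: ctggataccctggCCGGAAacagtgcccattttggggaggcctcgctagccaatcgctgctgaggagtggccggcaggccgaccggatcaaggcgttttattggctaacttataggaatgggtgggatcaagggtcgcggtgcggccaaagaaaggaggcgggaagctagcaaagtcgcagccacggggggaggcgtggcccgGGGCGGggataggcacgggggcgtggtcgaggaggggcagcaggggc
Birc3, chr9:7873171-7873420, minus strand, ETS: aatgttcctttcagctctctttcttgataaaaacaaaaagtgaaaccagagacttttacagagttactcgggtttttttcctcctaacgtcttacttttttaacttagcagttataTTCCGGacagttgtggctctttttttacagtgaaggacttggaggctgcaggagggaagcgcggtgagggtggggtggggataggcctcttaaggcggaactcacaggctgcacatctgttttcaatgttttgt
Traf3, chr12:111166120-111166369, plus strand, ETS, then 4 GC boxes, then kB: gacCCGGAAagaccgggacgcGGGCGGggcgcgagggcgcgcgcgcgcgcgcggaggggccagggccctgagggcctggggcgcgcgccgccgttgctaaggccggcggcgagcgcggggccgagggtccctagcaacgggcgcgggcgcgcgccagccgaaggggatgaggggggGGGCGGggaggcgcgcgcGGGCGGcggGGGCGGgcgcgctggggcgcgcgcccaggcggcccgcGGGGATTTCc
Traf1, chr2:34961773-34962022, minus strand, Runx: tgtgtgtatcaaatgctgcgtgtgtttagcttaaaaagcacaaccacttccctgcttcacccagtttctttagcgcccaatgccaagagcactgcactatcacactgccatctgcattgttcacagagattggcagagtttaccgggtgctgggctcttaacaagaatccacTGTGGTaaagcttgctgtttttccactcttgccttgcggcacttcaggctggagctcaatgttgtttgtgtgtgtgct
Over the RefSeq windows of 300 bases (250 before to 50 after a start), the Traf3 window was 84.0% G or C with 59 CpG, and the Birc2 window 67.0% with 34. The Birc3 window had 43.0% and 7 CpG, and the Traf1 window 48.7% and 4, against medians of 52.7% and 7 over 32851 windows of 27025 genes. The 7 genes had 8 such windows, Birc2 having a second start in the table. The kB letters were in 2 of the 8, at Traf3 (GGGGATTTC, bases -10 to -2 from the start) and at Traf2 (GGGTGTTTC, 31 to 39), and in 4.36% of all windows. ETS letters were in 5 of 8 (14.9% of all), GC boxes in 5 of 8 (35.7%), Runx in 2 of 8 (16.8%) and AP-1 in none (7.81%). The GC boxes and the ETS letters do not overlap the kB letters in these windows. A match describes letters only.

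The libraries differed in depth with genotype, and every WT list was deeper and longer than every KO list. The WT libraries kept 12.9 to 15.2 M tags (M, mega) and listed 52836 to 55939 peaks, and the KO libraries kept 4.72 to 10.3 M and listed 37266 to 42738. Peaks on chromosome Y numbered 9, 8 and 9 in WT and 0 in every KO library. Depth, chromosome Y content and genotype cannot be told apart here. Il33 itself had 1 peak in each of the 6 lists, which does not check the genotype labels, since no source here says which part of the gene was deleted. Heights below are the tallest deposited pileup (coverage by tags extended to 200 bp) in a region divided by the median pileup of that library's list, which was 28, 27 and 29 in WT and 20, 16 and 23 in KO, and are called scaled heights. Over the 29419 regions called in all 6 lists (shared regions) the median KO minus WT difference was -0.32 on the log2 scale with this scaling, so a difference near -0.32 is the shift of the whole set. Of Treg and T cell markers, 6 of 7 (Foxp3, Cd4, Cd3e, Il2ra, Ctla4 and Ikzf2) had a peak in every library, and Tnfrsf18, the GITR gene, in all but KO replicate 4. The sum of these markers' tallest scaled peaks was 19.6 to 22.2 in WT and 15.3 to 19.4 in KO. The B cell markers Pax5, Ebf1 and Cd79a summed to 4.97 to 5.22 in WT and 2.19 to 4.04 in KO, Cd79a having no peak in KO replicate 2, and Ms4a1 had none in any library. CD8 T and NK markers summed to 3.11 to 3.17 in WT and 1.38 to 2.78 in KO (2 of 5 in every library, Ncr1 with no peak). Myeloid markers summed to 2.59 to 2.96 and 1.69 to 2.40 (2 of 5, no peak at Lyz2, Csf1r or Itgax) and melanoma markers to 6.46 to 6.89 and 5.91 to 6.80 (2 of 5, no peak at Tyr, Dct or Tyrp1). Most of the melanoma sum was Pmel, at 4.65 to 5.69 over the 6 libraries, with Mlana at 1.06 to 1.75. Whether the Pmel peak stems from tumour cells was not tested. With each list's median as scale, every KO sum lay below every WT sum for each of these marker groups except melanoma. Their part in the results at the 7 genes was not tested. In sorted cells in bulk, fewer cells with an open site and less opening per cell cannot be told apart.

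Accessible regions were spread over all 7 genes, and 6 of the 7 starts had a region in every library. Of the 48 regions, 22 were called in all 6 lists (45.8%, against 45.4% of all regions). Counting a region once for each gene whose window it fell in gives 51 pairs, since 3 regions lay in the windows of both Birc2 and Birc3, which are neighbours on chromosome 9. Of these pairs 7 were over a start, 23 elsewhere inside a gene, 8 upstream and 13 downstream. Of the pairs with a region called in all 6 lists, 6 were over a start, 7 elsewhere inside, 5 upstream and 5 downstream. The start regions had a median width of 1124 bp (690 to 2090), the upstream regions 742 bp (215 to 1137), the other inside regions 445 bp (206 to 1214) and the downstream regions 397 bp (200 to 1124), beside 518 bp for all regions of the genome. The start without a shared region was that of Traf1, and such a region lay over the starts of 49.7% of 17492 protein-coding genes. The RefSeq table gives no exons, so regions inside a gene are not split into exonic, intronic and UTR here.

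**Figure D1:**
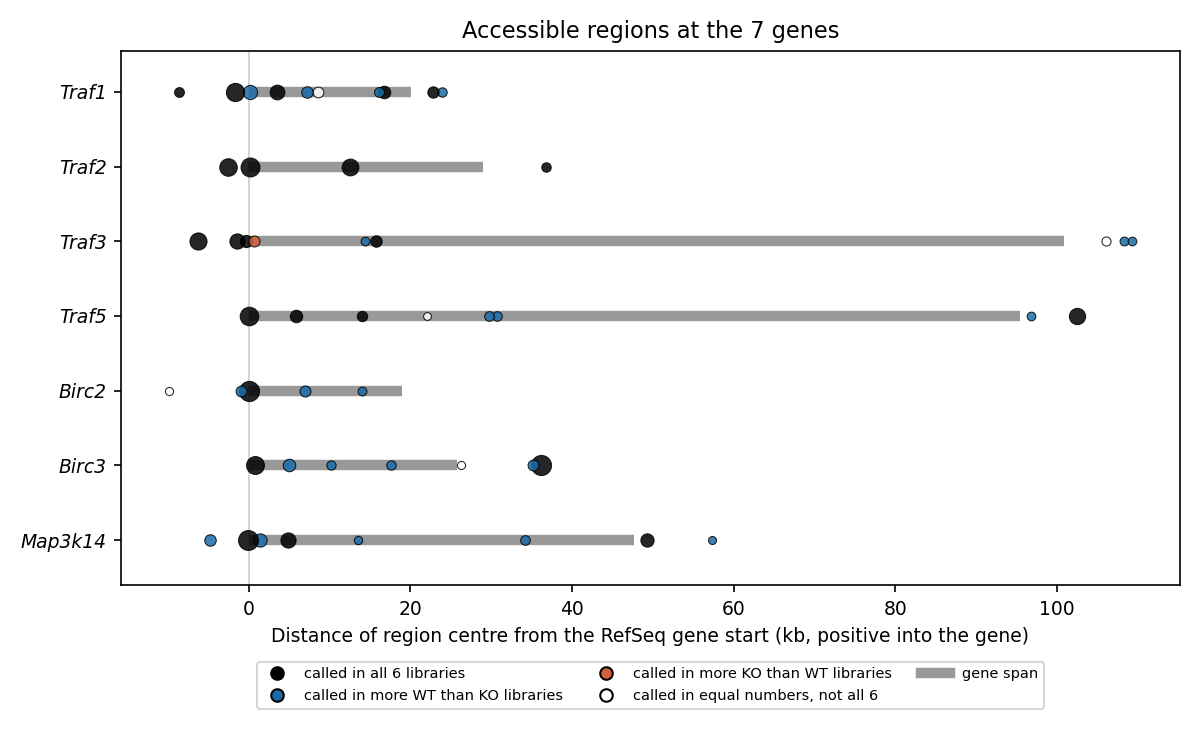
Merged accessible regions at each gene by distance (kb) of the region's centre from the gene start, with grey bars for the gene spans. Point area grows with the mean scaled height and colour gives the libraries that called the region: 22 of the 48 regions were called in all 6 libraries, 21 in more WT than KO and 1, inside Traf3, in more KO than WT.

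Start regions fell into a tall set at Birc2, Map3k14, Traf2, Traf5 and Birc3 and a low set at Traf3 and Traf1. At Birc2, the cIAP1 gene, the region over the start (chromosome 9, 7836421 to 7837544) had scaled heights of 4.32, 5.15 and 4.72 in WT replicates 2, 4 and 6, and of 4.70, 5.12 and 4.30 in KO replicates 1, 2 and 4. The genotypes overlapped fully, with 1 WT and 1 KO library at each extreme. Its summit lay between 13 bases before and 17 after the start in all 6 libraries, next to the promoter printed above. The Map3k14 start region (chromosome 11, 103266877 to 103268135) had 4.39, 4.89 and 4.45 in WT and 4.75, 4.81 and 4.35 in KO. These values overlapped as well, the lowest being a KO and the highest a WT library. Among the 8700 protein-coding genes with a shared region over the start, the mean height at Birc2 stood at percentile 97.6 and that at Map3k14, the NIK gene, at 96.2.

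At Traf5 the start region (chromosome 1, 192091954 to 192093241) had scaled heights of 3.79, 4.37 and 3.90 in WT and 4.10, 3.81 and 3.91 in KO, percentile 84.1. All KO values lay within the WT range. The summit position was the most constant of the 7 starts, 38 to 53 bases before the start. At Birc3, the cIAP2 gene, the start region (chromosome 9, 7871405 to 7873494) had 3.86, 3.89 and 4.07 in WT and 3.50, 4.00 and 2.70 in KO, percentile 74.5. KO replicate 2 lay inside the WT range and the other two KO libraries below it. This was the widest region at the 7 genes, at 2090 bp, and it held 3, 2 and 2 peaks in WT and 1, 1 and 2 in KO. The tall peak had its summit 123 to 143 bases inside the gene in all 6 libraries, and the lower peaks lay farther into the gene. The lower peak nearest to it had summit pileups, not scaled to depth, of 45, 52 and 50 in WT and 30 in KO replicate 4. No peak was called there in KO replicates 1 and 2. By fold enrichment (height over local background) these peaks stood at 2.36, 2.84 and 2.65 in WT and 2.55 in KO replicate 4, which lay within the WT range.

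At Traf2 the start region (chromosome 2, 25546372 to 25547254) had scaled heights of 4.57, 4.44 and 4.59 in WT and 3.60, 3.69 and 3.96 in KO, percentile 88.2. Every KO library was below every WT library at this start, with the heights scaled to each list's median. At Traf3 the region over the start (chromosome 12, 111165567 to 111166430) was low, with 1.64, 1.96 and 1.34 in WT and 1.10, 1.25 and 1.48 in KO, percentile 12.8. The genotypes overlapped, KO replicate 4 being above WT replicate 6. Its summit lay 266 to 423 bases upstream of the start, beyond the upstream edge of the printed promoter in every library. The tallest region of Traf3 lay 6.24 kb upstream (111159665 to 111160601), at 3.54, 3.56 and 3.59 in WT and 2.90, 3.12 and 3.09 in KO. There the KO libraries were all below the WT libraries, with each list's median as the scale.

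Traf1 had its tallest region beside its start. The region over the start (chromosome 2, 34961310 to 34961999) was called at scaled heights of 2.04, 2.30 and 2.28 in the 3 WT libraries and of 1.91 in KO replicate 4, and was not called in KO replicates 1 and 2. The called KO value was below the WT values. By the authors' fold enrichment (height over local background) these peaks stood only 2.29, 2.54, 2.58 and 2.51 times above a background of 24.3, 23.8, 24.98 and 17.0 tags in WT replicates 2, 4 and 6 and KO replicate 4, while the median fold of a list was 6.07 to 6.60. The region 1.66 kb upstream (34962866 to 34964002) was shared, at 3.86, 4.00 and 3.90 in WT and 3.85, 3.81 and 3.43 in KO. The groups did not overlap, but the highest KO and lowest WT values were closer to each other than the libraries of either group. Folds there were 5.21 to 5.32 in WT and 5.25 to 6.62 in KO. Ordered by mean height over the start (for Traf1 over the 4 libraries that called it), the 7 genes ran Birc2, Map3k14, Traf2, Traf5, Birc3, Traf1 and Traf3. Neighbours in this order overlapped in their libraries except Birc3 and Traf1, whose lowest and highest values were 2.70 and 2.30.

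**Figure D2:**
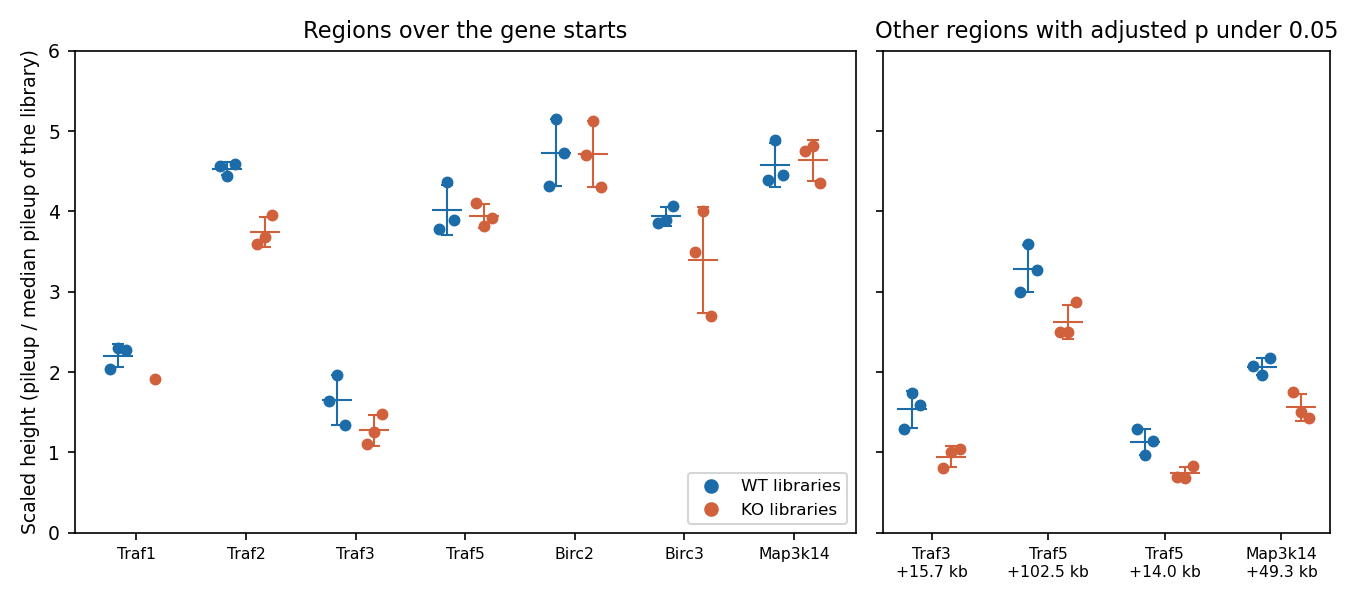
Scaled height (pileup over the library's median pileup) per library, WT in blue and KO in orange, with the mean and SD as bars, at the start regions (left) and at the other regions with an adjusted p under 0.05 (right, labelled by kb from the start). Traf2 is the start where the groups part with this scaling, at 4.44 to 4.59 in WT and 3.60 to 3.96 in KO, and Traf1 has 1 KO value because 2 KO lists hold no peak there.

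With heights scaled to each list's median, 5 of the 22 shared regions at the 7 genes were lower in KO and none was higher (limma, Benjamini-Hochberg over all shared regions, adjusted p under 0.05). At an unadjusted limma p under 0.05, 9 were lower and 0 higher, beside 14492 lower and 22 higher of all 29419 shared regions. By the adjusted rule 34.6% of all shared regions were lower and 0.0374% higher. So the share of the members' regions that was lower did not exceed the background by either rule. The heights of 9 of the 22 lay below the WT range in every KO library, against 48.2% of all shared regions, and 0 above it, against 0.197%. The 22 differences had a median of -0.21 and ran from -0.70 to 0.02, beside the median of -0.32 over all shared regions. The number of calls fell to 0 without WT replicate 4, to 1 without WT replicate 6 and to 3 without WT replicate 2, and was 5, 5 and 4 without KO replicates 1, 2 and 4. The share of all shared regions called in these fits was not counted, so a drop particular to the members is not shown. Without WT replicate 4 the 5 differences were -0.29 (Traf2 start), -0.60 (inside Traf3), -0.26 (downstream of Traf5), -0.72 (inside Traf5) and -0.45 (downstream of Map3k14), with limma adjusted p from 0.0528 to 0.138.

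The 5 regions were in 4 genes, and 3 of them were low or of middling height. The largest difference was inside Traf3, 15.7 kb from the start (111181845 to 111182381), with scaled heights of 1.29, 1.74 and 1.59 in WT and 0.80, 1.0 and 1.04 in KO. The groups did not overlap, and the difference was -0.70 ± 0.19 (log2, SE, n = 3 each, limma adjusted p = 0.00760). Inside Traf5, 14.0 kb from the start (192078282 to 192078978), heights were 1.29, 0.963 and 1.14 in WT and 0.70, 0.688 and 0.826 in KO. These groups did not overlap either, and the difference was -0.61 ± 0.22 (limma adjusted p = 0.0280). Downstream of Map3k14 (103217610 to 103218628, within the neighbouring gene Spata32) they were 2.07, 1.96 and 2.17 against 1.75, 1.5 and 1.43, a difference of -0.41 ± 0.15 (limma adjusted p = 0.0292) with no overlap. Regions of like height had median differences of -0.38 (scaled height under 1) and -0.37 (1 to 2), so the Map3k14 region lay close to its class.

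The other 2 calls were tall. Downstream of Traf5, 102.5 kb from its start and beyond the end of the gene (191989767 to 191990433), heights were 3.0, 3.59 and 3.28 in WT and 2.50, 2.50 and 2.87 in KO. The groups did not overlap, with a difference of -0.33 ± 0.11 (limma adjusted p = 0.0231), beside -0.31 for regions of scaled height 2 to 3. The Traf2 start differed by -0.28 ± 0.09 (limma adjusted p = 0.0193), beside -0.11 for regions of 4 or more. With shared regions as the scale these 2 differences turned to 0.02 and 0.07 (limma adjusted p = 0.948 and 0.746). Across the genome the median difference shrank with height, and 13 of the 22 member regions lay above and 9 below the median of their height class. The regions over the starts of Birc2 and Map3k14, the tallest, differed by -0.01 ± 0.09 and 0.02 ± 0.09 (limma adjusted p = 0.955 and 0.862). Their 95% intervals were -0.19 to 0.17 and -0.16 to 0.19.

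**Figure D3:**
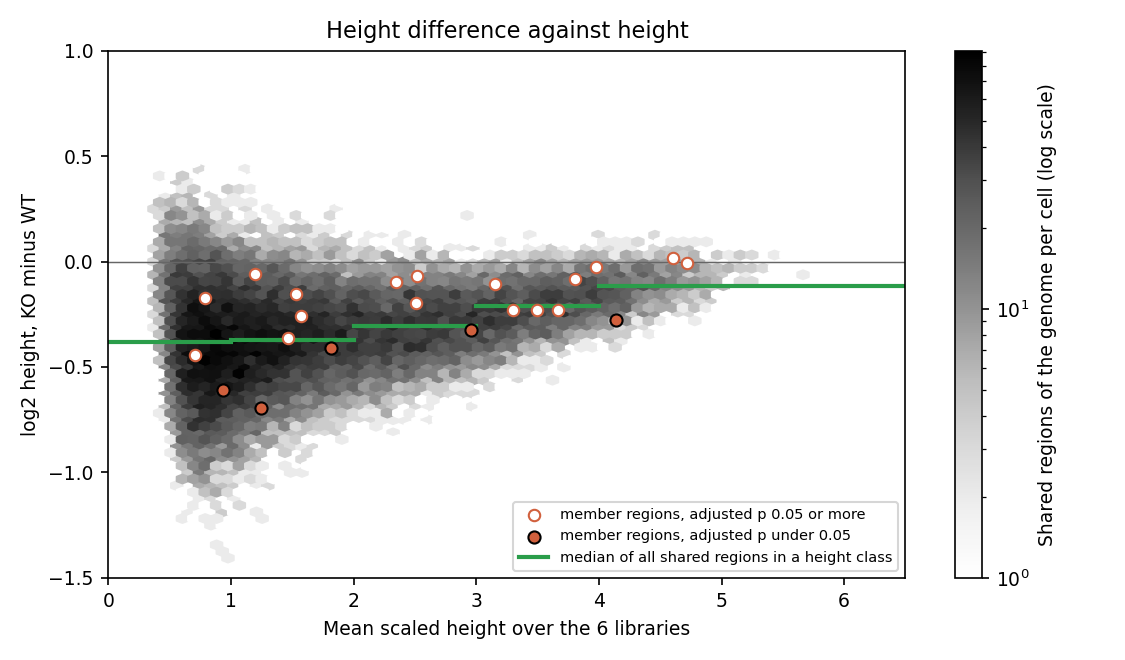
KO minus WT difference of log2 scaled height (each list's median as scale) against mean scaled height, for all 29419 shared regions in grey and the 22 at the 7 genes as orange-edged circles, filled where the adjusted p was under 0.05. Green lines are the medians of all shared regions in each height class, from -0.38 under 1 to -0.11 at 4 or more, and with the medians of shared regions as scale every point would lie 0.35 higher.

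The sign of most differences depended on the scale. When heights were divided by each library's median over the shared regions (45, 47 and 47 in WT, 27, 20 and 30 in KO), the median difference at the members turned from -0.21 to 0.13 and that of all shared regions from -0.32 to 0.03. None of the 22 regions was then lower (limma, 0 also at an unadjusted p under 0.05, background 0.323%) and 3 were higher (background 2.10%), all over starts. These were Map3k14 with 0.37 (adjusted p = 0.0123), Birc2 with 0.34 (adjusted p = 0.0229) and Traf5 with 0.32 (adjusted p = 0.0353), each by limma. Tall regions of the genome also lay above 0 with this scale. The median of the height class of 4 or more, that of Map3k14 and Birc2, was 0.23. For the class of 3 to 4, that of Traf5, it was 0.14. The share of higher calls by height class was not counted. The regions inside Traf3 and Traf5 and that at Spata32 stayed below 0 under every scale tried, at -0.35, -0.26 and -0.06 here, with limma adjusted p from 0.348 to 0.878. Scaled by tags kept, and after quantile normalisation, no member region was called by limma in either direction, nor at an unadjusted p under 0.05. The backgrounds were 0.00340% lower and 0.00680% higher with tags, and 0.0918% and 0.0612% with quantiles.

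Summed over its shared regions, each gene had 1 height per library. These sums grow with the number of regions, so they compare libraries and not genes. For Traf3 they were 8.75, 10.3 and 9.28 in WT and 7.0, 7.81 and 7.96 in KO, for Traf2 12.4, 12.1 and 12.6 against 11.2, 9.81 and 10.8, and for Traf5 9.82, 10.6 and 9.76 against 8.60, 8.44 and 9.22. In these 3 genes every KO library was below every WT library with each list's median as scale. How many of all genes separate in this way was not counted, so the separation does not set these 3 apart. Taken singly, 48.2% of all shared regions separated in this direction. By limma, a different measure, 68.1% of all genes were lower in KO with this scale. The limma differences were -0.31 ± 0.08 for Traf3 (adjusted p = 0.000529), -0.22 ± 0.07 for Traf2 (adjusted p = 0.00410) and -0.20 ± 0.07 for Traf5 (adjusted p = 0.0140), over all 14328 genes with a shared region. The Traf5 call needed the downstream region, as the gene span alone gave -0.14 (limma adjusted p = 0.120), and it was lost without WT replicate 4 (adjusted p = 0.0777).

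For the genes of the ubiquitin ligases and the kinase, and for Traf1, the groups overlapped. Traf1 summed to 9.79, 10.3 and 10.1 in WT and 10.2, 8.81 and 9.0 in KO (-0.11 ± 0.07, limma adjusted p = 0.151). Birc2 has 1 shared region, that over its start, and as a gene differed by -0.01 ± 0.10 (limma adjusted p = 0.951). Birc3 summed to 8.18, 9.04 and 8.79 against 8.20, 9.12 and 7.0 (-0.10 ± 0.08, limma adjusted p = 0.218), and since its window reaches the Birc2 start, that region makes up part of this sum. The gene span alone gave -0.23 for Birc3 (limma adjusted p = 0.0598), and leaving out KO replicate 4 gave -0.00197 (0.984). Summing the pileups of all peaks in a region made it lower at -0.35 (limma adjusted p = 0.00998), and so did keeping only peaks with −log10 q of at least 5, at -0.19 (0.0395). Map3k14 summed to 9.11, 9.30 and 9.24 against 8.85, 9.12 and 8.0 (-0.09 ± 0.07, limma adjusted p = 0.246), where KO replicate 2 alone reached the WT range. So 3 of the 7 genes were lower and 0 higher (0 also at an unadjusted p under 0.05), against 68.1% and 0.0209% of all genes. The median of the 7 was -0.11 and that of all genes -0.29.

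With the shared-region scale none of the 7 was lower (limma, 0 also at an unadjusted p under 0.05, background 0.907%) and 4 were higher (background 8.25%). They were Birc2 at 0.34 (limma adjusted p = 0.0189), Map3k14 at 0.26 (0.0200), Birc3 at 0.24 (0.0496) and Traf1 at 0.24 (0.0189), while Traf3 had 0.04, Traf2 0.12 and Traf5 0.15. The median of the 7 was 0.24 and that of all genes 0.06. How the share of genes called higher varies with height was not counted. The calls at Birc2 and Birc3 are not separate, since the Birc2 start region is also part of the Birc3 sum. The Birc3 start region by itself had 0.12 with this scale (limma adjusted p = 0.629). Scaled by tags kept, none of the 7 was called by limma (0 at an unadjusted p under 0.05, background 0% lower and 0.00698% higher). With quantiles none was called by limma (background 0.0698% lower and 0.0558% higher). At an unadjusted limma p under 0.05, 1 gene, Traf1, was higher, beside 707 of all 14328 genes. Traf3 had the lowest difference of the 7 with each list's median as scale. The shared-region and tag scales shift all genes by 1 common amount, so they cannot change this order. With quantiles Traf3 (-0.0235 ± 0.0642) and Traf2 (-0.0190 ± 0.0556) were not apart.

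**Figure D4:**
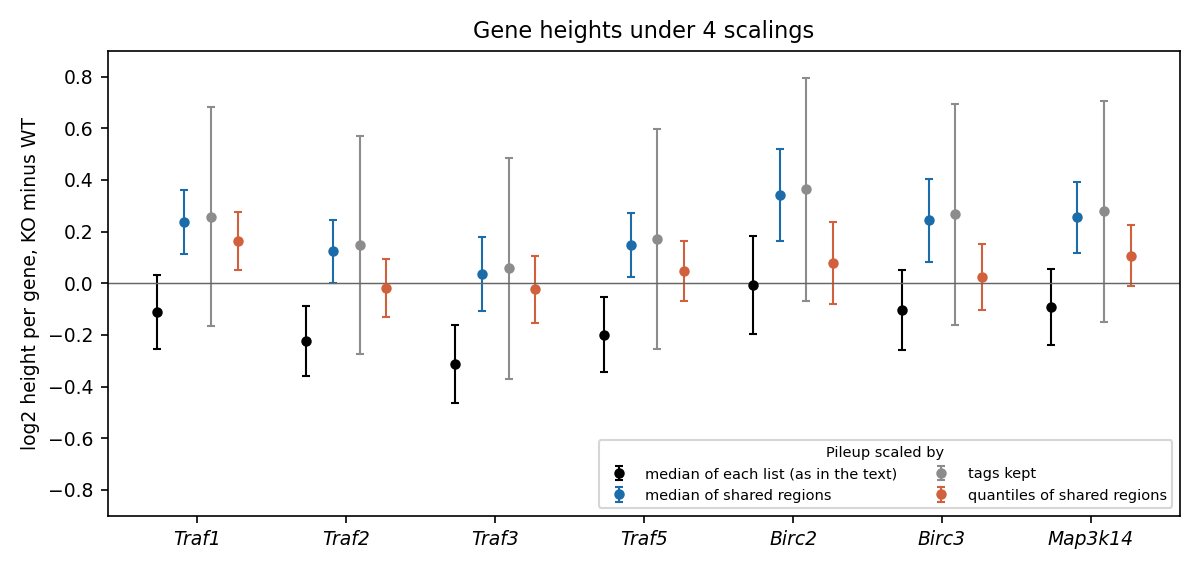
KO minus WT difference of log2 height per gene, with its 95% interval from limma (n = 3 against 3), under 4 ways of scaling the pileup. All 7 genes lie below 0 with each list's median as scale and above 0 with the shared-region median or tags, and with quantiles Traf2 and Traf3 lie just below 0 at -0.02 each.

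The KO lists, which were shorter, held fewer peaks at these genes. Peaks at the 7 genes numbered 38, 39 and 40 in WT and 30, 24 and 32 in KO, with no overlap. Per 10000 peaks of the list this was 7.14, 6.97 and 7.57 in WT and 7.07, 6.44 and 7.49 in KO, which overlapped (7.23 ± 0.309 and 7.0 ± 0.528, SD, n = 3 each). By gene, Traf2 had 4 peaks in each of the 6 libraries. Traf1 had 8 in each WT library and 6, 5 and 7 in KO, Traf5 7, 7 and 8 against 6, 5 and 6, Birc3 7, 6 and 7 against 4, 2 and 5, and Map3k14 6, 5 and 7 against 4 in each. Traf3 had 5, 7 and 5 against 5, 4 and 5, and Birc2 3, 4 and 3 against 3, 1 and 2. The groups did not overlap at 4 of the 7 genes, Traf1, Traf5, Birc3 and Map3k14, all fewer in KO (exact permutation p = 0.1 each, two-sided, the smallest that 3 against 3 libraries allow). Across 16246 genes with a peak 15.4% were separated in this direction and 0.455% in the other. With all lists cut to the 37266 peaks of smallest p, the length of the shortest, the KO minus WT difference over the 7 genes shrank from -10.3 to -2.0 peaks, and at Traf1 it turned from -2.0 to 1.0.

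By place, the pairs called in more WT than KO lists were 13 inside a gene, 6 downstream, 2 upstream and 1 over a start. All pairs numbered 23, 13, 8 and 7 in the same order, and shares by place over the genome were not counted. Of the 48 regions 21 were called in more WT than KO lists (43.8%, against 46.3% of all regions) and 1 in more KO than WT lists (2.08%, against 4.14%), a region 0.60 kb inside Traf3 that only KO replicate 1 had. One region, inside Traf5 30.8 kb from the start (192061671 to 192061994), was called in all 3 WT and no KO lists, against 4.66% of all regions. It was low in WT, at 0.607, 0.889 and 0.690 of the median pileup. None was called in all 3 KO and no WT lists, against 0.0185%. Another 7 were called in all WT and in some KO lists (14.6%, against 17.1% of all regions). Of these, 5 were missing from 1 KO list (10.4%, against 10.1%) and 2 from 2 (4.17%, against 7.03%). These 7 include the Traf1 start, a region 6.97 kb inside Birc2 (1.07, 1.22 and 1.21 in WT, 1.10 and 0.913 in KO replicates 1 and 4), and a pair inside Birc3. A region that a shallower list does not hold is not shown to be closed.

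Of 44 other genes of the pathway (other TRAFs and TRAF partners, IKK and TAK1 complex genes, linear ubiquitin and deubiquitinase genes, death domain adaptors and TNF family receptors), all had a peak and 42 a shared region. With each list's median as scale 31 of the 42 were lower in KO by limma and 0 higher (0 also at an unadjusted p under 0.05), beside 68.1% lower of all genes. The median over the 42 was -0.27. Those with the smallest p were Tnfrsf1b, the TNF receptor 2 gene (-0.32, limma adjusted p = 2.38e-05), Cd27, a TNF family receptor gene (-0.40, 2.67e-05), Casp8, the caspase gene of death receptor signalling (-0.46, 3.57e-05), and Tab2, a TAK1 adaptor gene (-0.65, 0.000127). They were followed by Ikbkb, the IKK2 gene (-0.33, 0.000269), and N4bp1 (-0.33, 0.000284). With the shared-region scale these 6 had 0.03, -0.05, -0.11, -0.30, 0.02 and 0.01 and none was called by limma. In that scale 0 of the 42 were lower (1 at an unadjusted p under 0.05, beside 689 of all 14328 genes) and 4 higher, beside 8.25% of all genes. These were Traf7, Rnf31, Tnfrsf4 and Tnfrsf9, which were named after their values were seen. Peak numbers were lower in every KO than every WT library at 6 of the 44, beside 15.4% of all genes with a peak, and higher at 0, beside 0.455%.

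The members' mean log2 height per library was 3.10, 3.21 and 3.15 in WT and 3.02, 3.03 and 2.96 in KO. The genes closest to it by Euclidean distance over the 6 libraries were Dnajc14 (0.0477), Psen2 (0.0596), Sfxn3 (0.0648), Ttc13 (0.0672) and Ndufa13 (0.0749), beside a median distance of 2.60 over 14321 genes. The members themselves lay 0.231 to 2.08 from their mean. The 5 genes were picked as the closest of all, so their small distances do not mark them as related to the members. These heights also grow with the number of shared regions, which enters the distances.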

How the data were processed

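Per the labels' protocols, chromatin was cut with in-house Tn5. Per the submitters' processing notes the build was mm10 and tools included Bowtie2 2.3.1 and Picard 1.88. Per the file headers, the authors called peaks on each library alone with MACS 2.1.1.20160309 at a q-value of 0.05, with tags shifted by -100 bp, extended to 200 bp and 1 tag kept per position. As a signal, the deposited pileup counts extended tags over a summit without scaling to depth, so deeper lists call weaker sites. The authors' −log10 p-value and their −log10 q-value served to rank or filter peaks, and the authors' fold enrichment is a ratio to local background, used only to describe peaks.

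Peaks were merged over the 6 lists, and heights were scaled to each list's median. limma 3.58.1 (R 4.3.3), with a mean-dependent prior variance and genotype alone, was fitted to log2 heights without a pseudocount. Benjamini-Hochberg adjustment covered all regions or genes, at 0.05. Peak numbers were compared by two-sided exact permutation over 20 assignments. Other steps used SciPy 1.17.1, pandas 2.3.3, NumPy 2.4.6 and Matplotlib 3.10.9 in Python 3.11.15, and the fit was tested on simulated data. Gene spans and promoter windows came from RefSeq tables on GRCm38.p6. All 7 members and all 44 pathway genes were matched. The members and lists were chosen with earlier results of these data known. Regions named at a gene are those over its start, its tallest, those called in 1 genotype only, and those past the threshold. Pathway genes named are at most 6 past the threshold, smallest p first, and nearest genes the 5 closest. Markers were scored by the tallest peak in the gene or 1 kb around it. A further marker is not reported here. Alternatives were other scalings (shared regions, tags, and quantiles, the last chosen after seeing the data), summed pileup, a mean pileup of at least 20, −log10 q of at least 5, equal-length lists, 200 bp summit windows, windows of 0 or 5 kb, each library left out, and a replicate block.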

Additional observations from a re-analysis of the deposited data

How the results depend on the processing

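The scale decided the sign of most height differences, whose log2 KO minus WT values follow. Scaled to shared regions, 0 member regions were lower and 3 higher, 0 genes lower and 4 higher (Birc2 and Birc3 sharing the Birc2 start region), and the median over member regions was 0.135. Genes then had 0.235 (Traf1), 0.124 (Traf2), 0.0354 (Traf3), 0.149 (Traf5), 0.341 (Birc2), 0.244 (Birc3) and 0.255 (Map3k14). Regions had 0.263 (upstream of Traf1), 0.0718 (Traf2 start), 0.118 (6.24 kb upstream of Traf3), 0.0218 (downstream of Traf5), 0.322 (Traf5 start), 0.341 (Birc2 start) and 0.116 (Birc3 start). Scaled by tags kept, 0 regions and 0 genes were lower, and the median was 0.157. In the same order of genes the values were 0.258, 0.146, 0.0578, 0.171, 0.363, 0.266 and 0.278, and in the same order of regions 0.285, 0.0942, 0.140, 0.0442, 0.345, 0.363 and 0.139, with 0.00546 at the Traf3 start. In equal-length lists, 0 regions and 0 genes were lower, and the median was 0.140. Genes had 0.244, 0.128, 0.0526, 0.153, 0.346, 0.248 and 0.260 and regions 0.268, 0.0765, 0.123, 0.0264, 0.327, 0.346 and 0.121. There the peak difference over the 7 genes was -2.0 and that at Traf1 1.0, and 0 regions were called in all WT and no KO lists. With quantiles, 0 regions and 0 genes were lower, the median was 0.0811, and values turned at Traf1 (0.162), Traf5 (0.0478), Birc2 (0.0780), Birc3 (0.0230), Map3k14 (0.107), the region upstream of Traf1 (0.0842) and the starts of Traf5 (0.129) and Birc2 (0.0780). The shared-region and tag scales add 1 constant per library to all log2 heights. They therefore move every KO minus WT difference by 1 common amount. The causes of the other changes, in calls, in peak numbers and with quantiles, were not tested. In equal-length lists the named regions likewise moved by 1 common amount.

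Other alternatives moved counts. The shares of all regions and genes called under them were not counted, so these counts do not set the members apart. With the main setting 34.6% of all shared regions and 68.1% of all genes were already lower in KO. At −log10 q of at least 5, 9 regions and 6 genes were lower, the median was -0.300, the Map3k14 start had -0.0685, and 2 regions were called in all WT and no KO lists, as with 200 bp summit windows (2). Summed pileup gave 2 regions lower, that inside Traf3 and the Birc3 start (-0.684, limma adjusted p = 0.0220), the latter not among the 5, and as genes Birc3 became lower (-0.352, 0.00998) and Traf5 was lost (0.0522). The gene span alone gave 3 regions. Leaving out 1 library at a time gave 0 to 5 regions lower (none without WT replicate 4) and 1 to 3 regions in all WT and no KO lists. In those fits Birc2 ranged from -0.0972 to 0.0566, the Birc2 start from -0.0700 to 0.0566, the Traf5 start from -0.0668 to 0.0368, the Map3k14 start from -0.00971 to 0.0675, Birc3 from -0.146 to -0.00197 and the Birc3 start from -0.358 to -0.0735. Calls were gained at the Birc3 start without KO replicate 2 (limma adjusted p = 0.0138) and at Traf1 as a gene without KO replicate 1 (-0.177, 0.0366). The causes were not tested. Over all results and alternatives 335 values kept their direction and side of the threshold or moved little, 66 reversed, 45 lost and 10 gained the threshold, and 31 others moved. Depth limits presence calls, since the shallowest list had 4.72 M tags.

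With the replicate block, which uses only numbers 2 and 4, 0 regions and 2 genes were lower (shares of all not counted). Traf5 was lost as a gene (-0.207), and the Map3k14 start had -0.0188. The numbers are not known to mark a shared source: deviations of same-numbered libraries correlated at -0.0208 and -0.0519 over 29419 regions.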
